A study of Mus musculus with 12 samples.

Results

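The arginine and polyamine genes described here are 10 genes chosen by symbol: Arg1, Arg2, Nos2 and Slc7a2, which handle arginine, and Odc1, Amd1, Srm, Sms, Sat1 and Azin1, which make, remove or regulate polyamines. All 10 were found among the 38887 genes measured in each RNA-Seq library, and 8 of them had enough reads to be tested. The libraries came from bone marrow-derived macrophages (BMMs) of 3- to 4-month-old mice that were either WT or lacked IGF2BP2, an RNA-binding protein, in myeloid cells. In the IGF2BP2 KO mice, exons 4 and 5 of Igf2bp2 were floxed and Cre was expressed from the Lyz2 locus, whereas the WT littermates had no floxed allele and carried Cre in some animals only. All cells were differentiated for 6 days with 50 ng/ml M-CSF, and they were then left untreated (M0) or were given 20 ng/ml IL-4 for 8 h (M2). Each of the groups WT M0, WT M2, KO M0 and KO M2 held 3 libraries, which the study attributes to 3 mice per group. The labels themselves name no animal, so that the p-values describe the spread between these libraries.

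Arginine is shared by competing enzymes in macrophages. Arginase, encoded by Arg1 in the cytosol and by Arg2 in mitochondria, splits it into urea and ornithine, while the inducible nitric oxide synthase encoded by Nos2 turns it into nitric oxide and citrulline. Ornithine decarboxylase (Odc1) converts ornithine to putrescine, and putrescine is extended to spermidine and spermine with aminopropyl groups supplied by S-adenosylmethionine decarboxylase (Amd1). Arginase is a classical marker of IL-4-activated mouse macrophages, and Nos2 is known for its induction by interferon and bacterial products.

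Counts are given as CPM, counts relative to a library's TMM-scaled total, when libraries are compared, and as TPM, which also corrects for transcript length, when genes are compared. A gene was called higher or lower at an adjusted p under 0.05 in edgeR's quasi-likelihood test with Benjamini-Hochberg adjustment over 12846 genes. Log2 fold changes are followed by their standard error (SE).

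Library totals ranged from 20011792 to 39632770 counts. Lyz2, the site of the Cre insertion, was measured at 4185 to 10544 CPM in the WT libraries and at 11 to 33.2 CPM in the KO libraries. Whole-gene counts of Igf2bp2 include the exons that remain, and in M0 they were 76.5 to 118 CPM for WT beside 84.9 to 95.9 CPM for KO, and in M2 178 to 233 CPM for WT beside 129 to 146 CPM for KO. Counts per exon were not examined here. The study itself reports that protein and mRNA of Igf2bp2 were nearly undetectable in KO BMMs. The summed level of 7 macrophage markers was 5042 to 5704 CPM in all libraries, and 9 markers of IL-4 activation summed to 220 to 291 CPM in WT M0, 134 to 159 CPM in KO M0, 2686 to 3188 CPM in WT M2 and 2570 to 2770 CPM in KO M2. Of the 7 macrophage markers, 4 were called higher and 2 lower under IL-4 in WT (24.9% and 25.1% of all tested genes). In KO, 2 were called higher and 2 lower (26.8% and 26%). Between the genotypes, 1 was called higher in KO M0 (5.5%) and 0 were called in M2. Of 5 fibroblast and stroma markers, the sum was 29.5 to 53.1 CPM in WT M0 and 32.5 to 59.5 CPM in WT M2, but 7.91 to 29.8 CPM in KO M0 and 8.94 to 26.2 CPM in KO M2. Markers of T cells, B cells, mast cells, eosinophils and erythroid cells summed to at most 0.67 CPM per list, and those of neutrophils to at most 9.23 CPM. The sums of 2 other lists were higher in M2: 3 endothelial markers went from 10.3 to 11.8 CPM in M0 to 40.4 to 54.9 CPM in M2, where Pecam1 rose and Cdh5 and Kdr fell in both genotypes, and 3 dendritic cell markers went from 0.194 to 0.404 CPM to 1.45 to 2.11 CPM, where Zbtb46, the tested one, rose in both. Their part in the IL-4 results was not tested. Replicate 3 of both WT groups and replicate 1 of KO M2 stood apart from their groups. The chi-square per degree of freedom over all genes was 23.7 and 39 between WT M0 replicate 3 and its partners (8.5 between the others), 17 and 20.7 for WT M2 replicate 3 (5.74 between the others) and 14.8 and 19.7 for KO M2 replicate 1 (4.93 between the others). Results that rest on these libraries are given with and without them.

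Arg1 (chr10:24915221-24927484, minus strand, protein-coding, GRCm38, ENSMUSG00000019987) changed more under IL-4 than any other of the 8 tested genes. Its values were 7.08, 6.87 and 12.2 CPM in WT M0 and 4073, 4569 and 4991 CPM in WT M2. In KO it was 9.77, 12.9 and 11.1 CPM in M0 and 4412, 4094 and 4149 CPM in M2. Every M2 library was far above every M0 library in both genotypes, and WT M0 replicate 3 was the highest of the WT M0 libraries. The log2 fold change under IL-4 was 9.04 (SE 0.21, edgeR adjusted p = 6.42e-12) in WT, a 527-fold rise, and 8.54 (SE 0.20, edgeR adjusted p = 7.69e-12) in KO, a 372-fold rise. Ranked by TPM within a library, Arg1 lay between positions 6822 and 8451 in M0 and at position 9 or 10 in M2, where its transcripts made up 0.506 to 0.619% of all TPM.

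Slc7a2 (chr8:40862396-40922308, plus strand, ENSMUSG00000031596) encodes CAT-2, a carrier of arginine and other cationic amino acids, and it rose with Arg1. It was measured at 6.11, 5.98 and 4.09 CPM in WT M0 and at 543, 579 and 382 CPM in WT M2. In KO the values were 3.31, 3.21 and 2.49 CPM in M0 and 375, 535 and 505 CPM in M2. The M0 and M2 libraries did not overlap, and WT M2 replicate 3 and KO M2 replicate 1, which stood apart from their groups over all genes, were also the lowest of their groups here. The rise was 92.1-fold in WT (log2 fold change 6.52, SE 0.22, edgeR adjusted p = 1.4e-10) and 158-fold in KO (log2 fold change 7.30, SE 0.23, edgeR adjusted p = 7.99e-11).

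The alternative arginine enzymes were close to absent. Arg2 (chr12:79130777-79156301, plus strand, ENSMUSG00000021125), the mitochondrial arginase, had 3 to 9 reads in each of the 12 libraries, and it overlaps Vti1b on the opposite strand, which averaged 91.9 CPM. Nos2 (chr11:78920787-78960254, plus strand, ENSMUSG00000020826) had 11, 11 and 5 reads in WT M0, 6, 3 and 1 in WT M2, 6, 12 and 5 in KO M0, and 6, 6 and 2 in KO M2. Neither gene passed the filter on low counts. Without that filter neither was called in any comparison, with edgeR adjusted p from 0.349 for Nos2 under IL-4 in WT (log2 fold change -0.91, SE 0.63) to 1, so that no difference was detectable at this depth. Per length, Arg1 in M2 reached 5063 to 6188 TPM in WT and 5102 to 5165 TPM in KO, beside 0.18 to 0.46 TPM for Arg2 and 0.02 to 0.11 TPM for Nos2.

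**Figure D1:**
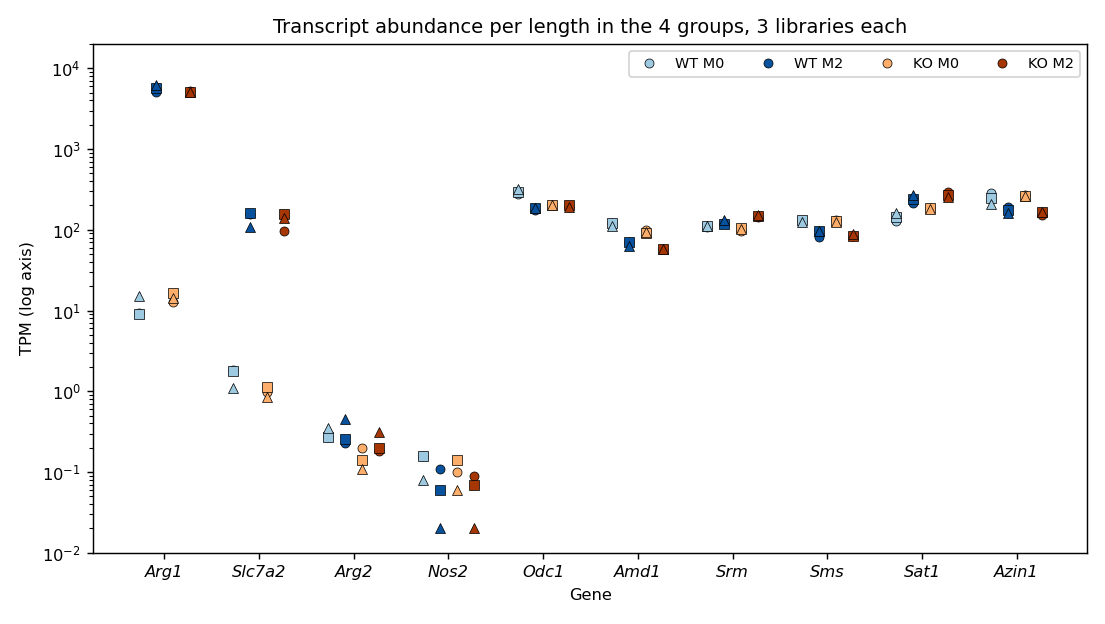
TPM on a log axis for the 10 genes, with 1 symbol per library (circle, square and triangle for replicates 1, 2 and 3) and 1 colour per group. Arg1 and Slc7a2 are the genes that shift between M0 and M2 by orders of magnitude, the genes of polyamine metabolism lie between 57.4 and 318 TPM in all libraries, and Arg2 and Nos2 lie at 0.46 TPM or lower.

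The enzymes of polyamine synthesis did not rise with arginase as a group, and among them only Srm was raised. In WT macrophages IL-4 lowered Odc1, Amd1, Sms and Azin1 and raised Sat1 and Srm, and in KO macrophages the same directions were called except for Odc1. Of the 8 tested genes, 4 were called higher and 4 lower in WT, where 24.9% of all tested genes were called higher and 25.1% lower. In KO, 4 were called higher and 3 lower, where 26.8% of all tested genes were called higher and 26% lower. Called genes were thus common throughout, and the counts are not read as particular to these genes. Their median log2 fold change was -0.10 in WT and 0.34 in KO, beside -0.01 and 0.01 over all tested genes. Each median fell in a gap, between Sms and Azin1 at -0.43 and Srm at 0.24 in WT, and between Odc1 at 0.03 and Srm at 0.65 in KO. The medians are therefore not read as a shift of the genes together. Every one of these IL-4 calls was also made by the other tools and settings tried and in each fit without 1 library.

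Odc1 (chr12:17544794-17551505, plus strand, ENSMUSG00000011179), the first enzyme of the polyamine path and a protein of very short half-life, was the gene on which the genotypes differed most clearly. It was measured at 366, 400 and 454 CPM in WT M0 and at 253, 263 and 263 CPM in WT M2. In KO it was 274, 278 and 278 CPM in M0 and 289, 287 and 271 CPM in M2. The 3 WT M0 libraries were above all other libraries, and the remaining 9 lay within a narrow range. IL-4 lowered Odc1 in WT 1.56-fold (log2 fold change -0.65, SE 0.07, edgeR adjusted p = 3.62e-06), while in KO the log2 fold change was 0.03 (SE 0.06, edgeR adjusted p = 0.728).

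Amd1 (chr10:40287458-40302186, minus strand, ENSMUSG00000075232) was measured at 204, 205 and 201 CPM in WT M0 and at 128, 127 and 115 CPM in WT M2. In KO it was 169, 159 and 164 CPM in M0 and 110, 103 and 106 CPM in M2. The 4 groups did not overlap with each other, and the order from high to low was WT M0, KO M0, WT M2 and KO M2. IL-4 lowered it 1.65-fold in WT (log2 fold change -0.72, SE 0.05, edgeR adjusted p = 8.61e-08) and 1.54-fold in KO (log2 fold change -0.63, SE 0.05, edgeR adjusted p = 2.78e-07). Reads shared with near-identical copies such as Amd2 added an SD of at most 0.611% to a count of Amd1, and Amd2 itself averaged between 1.07 and 4.42 CPM in the groups.

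The aminopropyl transferases moved in opposite directions. Srm (chr4:148591503-148594993, plus strand, ENSMUSG00000006442), spermidine synthase, was measured at 72.1, 74.5 and 80.2 CPM in WT M0 and at 87.6, 85.7 and 94.2 CPM in WT M2. In KO it was 66.8, 72.6 and 71.4 CPM in M0 and 112, 108 and 111 CPM in M2. All M2 libraries were above all M0 libraries, and the KO M2 libraries were the highest of all. Srm rose 1.18-fold in WT (log2 fold change 0.24, SE 0.05, edgeR adjusted p = 0.00277) and 1.57-fold in KO (log2 fold change 0.65, SE 0.05, edgeR adjusted p = 5.26e-07).

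Sms (chrX:157443855-157492287, minus strand, ENSMUSG00000071708), spermine synthase, was measured at 139, 145 and 138 CPM in WT M0 and at 100, 108 and 107 CPM in WT M2. In KO it was 142, 138 and 136 CPM in M0 and 103, 96.4 and 98.4 CPM in M2. The M0 libraries lay above the M2 libraries in both genotypes, and the genotypes overlapped in both treatments. Sms fell 1.34-fold in WT (log2 fold change -0.43, SE 0.05, edgeR adjusted p = 6.21e-06) and 1.4-fold in KO (log2 fold change -0.49, SE 0.05, edgeR adjusted p = 1.41e-06), and reads shared with other genes added an SD of at most 1.65% to its counts.

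Sat1 (chrX:155213132-155216449, minus strand, ENSMUSG00000025283) encodes spermidine/spermine acetyltransferase, which marks polyamines for export or breakdown. It was measured at 75, 84.6 and 101 CPM in WT M0 and at 133, 149 and 171 CPM in WT M2. In KO it was 109, 112 and 110 CPM in M0 and 197, 169 and 164 CPM in M2. No M0 library reached an M2 library, and WT M2 replicate 3 and KO M2 replicate 1 were the highest of their groups. Sat1 rose 1.74-fold in WT (log2 fold change 0.80, SE 0.11, edgeR adjusted p = 6.12e-05) and 1.6-fold in KO (log2 fold change 0.68, SE 0.11, edgeR adjusted p = 0.000186).

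Azin1 (chr15:38487427-38519266, minus strand, ENSMUSG00000037458) encodes antizyme inhibitor, a protein related to ornithine decarboxylase that binds antizyme and so spares the enzyme from degradation. Its values were 498, 466 and 418 CPM in WT M0 and 373, 350 and 306 CPM in WT M2. In KO they were 477, 444 and 485 CPM in M0 and 301, 312 and 325 CPM in M2. The treatments were separated in both genotypes and the genotypes overlapped in both treatments. Azin1 fell 1.34-fold in WT (log2 fold change -0.43, SE 0.08, edgeR adjusted p = 0.000505) and 1.5-fold in KO (log2 fold change -0.58, SE 0.08, edgeR adjusted p = 3.33e-05).

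**Figure D2:**
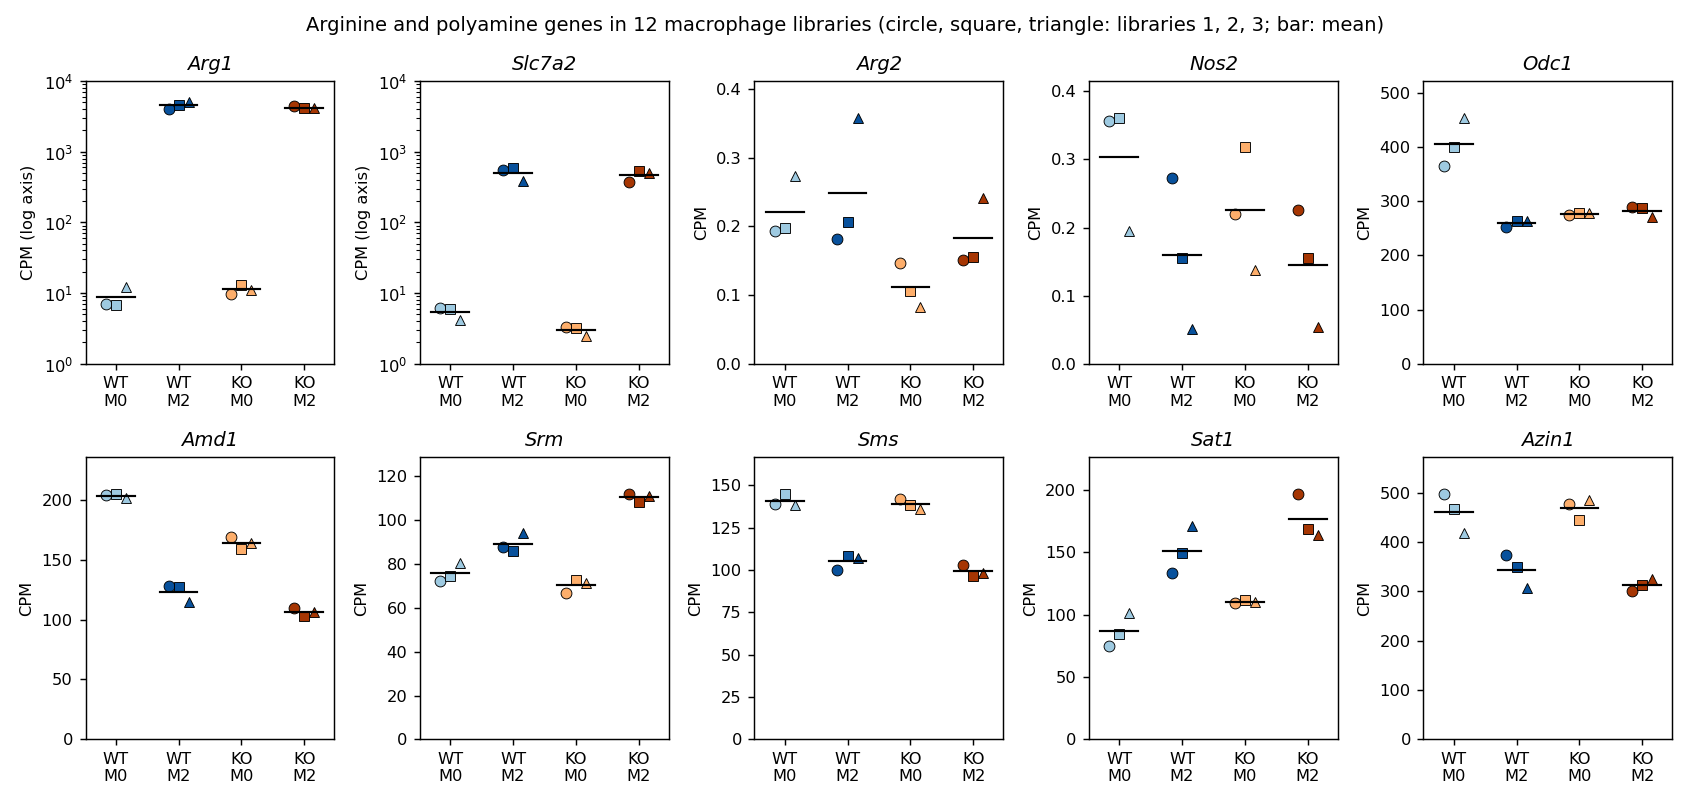
CPM of each gene in the 12 libraries (circle, square and triangle for replicates 1, 2 and 3; horizontal bars are means of 3), with a log axis for Arg1 and Slc7a2 and linear axes from 0 for the others. The Odc1 panel shows the 3 WT M0 libraries at 366 to 454 CPM and all other libraries at 253 to 289 CPM, and the Srm panel shows the 3 KO M2 libraries at 108 to 112 CPM above all others.

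The order of the levels per length changed with treatment. In WT M0 it ran, by mean TPM, from Odc1 (297) over Azin1 (247), Sat1 (144), Sms (128), Amd1 (117) and Srm (110) down to Arg1 (11.2), Slc7a2 (1.58), Arg2 (0.297) and Nos2 (0.133). The ranges of Odc1 and Azin1, of Sat1 and Sms, and of Amd1 and Srm overlapped, so these neighbours did not differ beyond their spread. In KO M0 Azin1 (259 to 269 TPM) lay above Odc1 (201 to 202 TPM) without overlap, and only Srm and Amd1 overlapped among the neighbours from Azin1 down to Amd1. In M2 of both genotypes Arg1 came first and Sat1 second, at 215 to 273 TPM in WT and 258 to 295 TPM in KO, and Amd1 was the lowest of the polyamine genes, at 63.7 to 70.7 TPM in WT and 57.4 to 58.2 TPM in KO. Odc1, Azin1, Slc7a2 and Srm followed each other in WT M2 with overlapping ranges between neighbours.

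The summed TPM of the 4 genes Odc1, Amd1, Srm and Sms was 633, 657 and 665 in WT M0, 531, 526 and 521 in KO M0, 452, 469 and 477 in WT M2 and 478, 495 and 490 in KO M2. The sum was thus highest in WT M0, and no group overlapped with another. The M2 genotypes nearly touched, at 477 in WT M2 replicate 3 and 478 in KO M2 replicate 1, which are libraries that stood apart from their groups. Odc1 made up 43.6 to 47.8% of it in WT M0 and 38 to 41% in all other libraries. The ratio of Odc1 to Azin1 in TPM was 0.97 to 1.54 for WT and 0.75 to 0.779 for KO in M0, and it was 0.922 to 1.14 for WT and 1.13 to 1.25 for KO in M2. These sums and ratios are descriptions of the libraries and were given no test.

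The genotypes were then compared within each treatment. In M0, Odc1 and Amd1 were lower in KO. Of the 8 tested genes 0 were called higher and 2 lower, where 5.5% of all tested genes were called higher and 4.27% lower. At an unadjusted p under 0.05 edgeR had 1 higher and 3 lower (13.2% and 12.1% of all tested genes), and DESeq2 called 1 higher and 3 lower, the additional genes being Sat1 and Slc7a2. The 274 to 278 CPM of Odc1 in KO M0 lay below the 366 to 454 CPM of WT M0, a 1.47-fold difference (log2 fold change -0.55, SE 0.06, edgeR adjusted p = 0.000455). Amd1 was 1.24-fold lower (log2 fold change -0.31, SE 0.05, edgeR adjusted p = 0.00265). Both calls held in every fit that left out 1 library, with edgeR adjusted p up to 0.00393 for Odc1 and 0.021 for Amd1.

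Other differences in M0 depended on the libraries or on the test. Slc7a2 was lower in all 3 KO libraries without overlap, but its log2 fold change of -0.86 (SE 0.26) had an edgeR adjusted p of 0.0568. DESeq2 called it at an adjusted p of 0.00937, and edgeR did so without WT M0 replicate 3 (adjusted p = 0.0389), without WT M2 replicate 3 (adjusted p = 0.0261) and without KO M2 replicate 1 (adjusted p = 0.0389). In all, 3 of the 12 fits without 1 library and 6 of 10 other settings (tools, filters, blocks or several libraries left out) called it. On the log2(TPM + 1) scale, where low values count less, the limma difference was -0.36. Sat1 was higher in all 3 KO libraries, its log2 fold change was 0.35 (SE 0.11, edgeR adjusted p = 0.0673), and without WT M0 replicate 3 it was 0.47 (edgeR adjusted p = 0.0122). It was also called without WT M2 replicate 3 (edgeR adjusted p = 0.0476), by DESeq2 (adjusted p = 0.0211) and by limma on log2(TPM + 1) (adjusted p = 0.0428). Sat1 was thus called in 2 of the 12 fits without 1 library and in 6 of the 10 other settings. For Arg1 the log2 fold change was 0.39 (SE 0.18, edgeR adjusted p = 0.202), its groups overlapped through WT M0 replicate 3 at 12.2 CPM, and without that library the value was 0.70 (edgeR adjusted p = 0.00451). Without WT M0 replicate 3, the called genes among the 8 numbered 5 in place of 2, and without WT M2 replicate 3 they numbered 4. Srm (log2 fold change -0.10), Sms (-0.02) and Azin1 (0.02) were not called in M0 in any fit, with edgeR adjusted p of 0.255, 0.797 and 0.887.

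In M2, Srm was higher and Amd1 was lower in KO. Of the 8 tested genes 1 was called higher in KO and 1 lower, where 1.21% of all tested genes were called higher and 1.46% lower. Srm was 1.24-fold higher in KO M2 (log2 fold change 0.31, SE 0.05, edgeR adjusted p = 0.0165), with all 3 KO libraries above the WT libraries. This call was lost without WT M2 replicate 2 (edgeR adjusted p = 0.084), KO M2 replicate 2 (adjusted p = 0.0561) or KO M2 replicate 3 (adjusted p = 0.0814), while the log2 fold change stayed between 0.28 and 0.35. Amd1 was 1.16-fold lower in KO M2 without overlap (log2 fold change -0.21, SE 0.05, edgeR adjusted p = 0.0421). Its call was lost in 8 of the 12 fits without 1 library, namely without WT M0 replicate 2, WT M2 replicate 1 or 2, any of the KO M0 libraries, or KO M2 replicate 2 or 3 (edgeR adjusted p from 0.0601 to 0.175). The number of genes called in M2 was itself unstable, at 344 over all tested genes and 25 to 761 when 1 library was left out.

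The 253 to 263 CPM of Odc1 in WT M2 lay just below the 271 to 289 CPM in KO M2, but the log2 fold change of 0.12 (SE 0.06) was not called (edgeR adjusted p = 0.317). Arg1 in M2 had overlapping genotypes and a log2 difference of -0.11 (SE 0.14, edgeR adjusted p = 0.716). For Slc7a2 it was -0.09 (SE 0.16, edgeR adjusted p = 0.806). Sat1 (0.23, edgeR adjusted p = 0.267), Sms (-0.08, edgeR adjusted p = 0.331) and Azin1 (-0.14, edgeR adjusted p = 0.345) were not called either. Without replicate 3 of both WT groups, Sat1 reached 0.32 (edgeR adjusted p = 0.0354) and Azin1 -0.21 (edgeR adjusted p = 0.0454). With KO M2 replicate 1 left out as well, Sat1 was 0.24 (edgeR adjusted p = 0.0381) and Azin1 was -0.19 and not called (edgeR adjusted p = 0.0543).

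**Figure D3:**
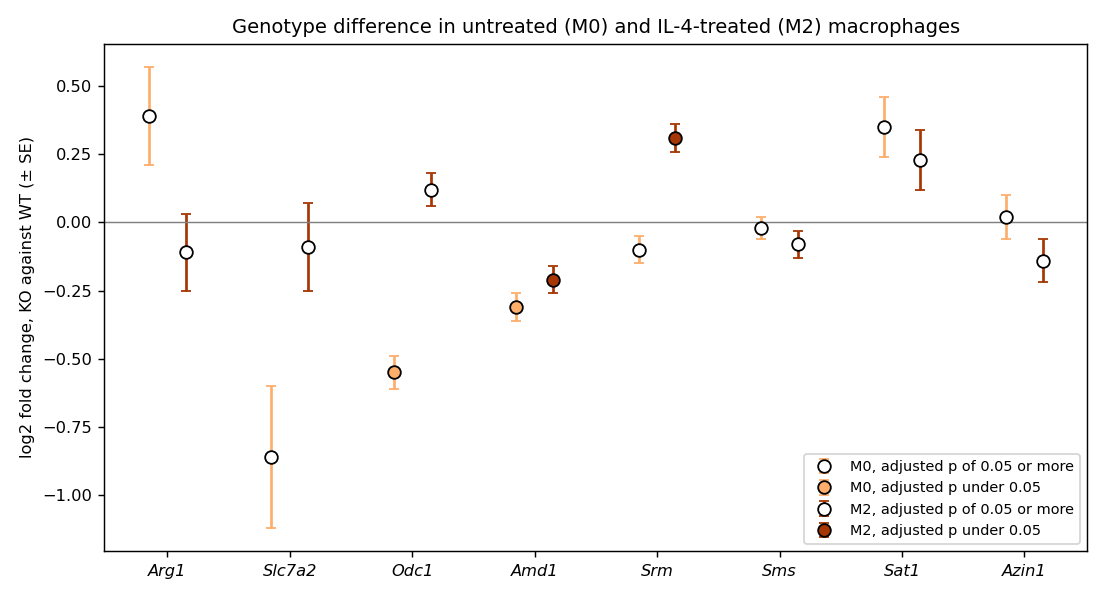
Log2 fold change of KO against WT (± SE from the edgeR fit of 3 against 3 libraries) for the 8 tested genes in M0 and M2, with filled symbols for an adjusted p under 0.05. Odc1 (-0.55) and Amd1 (-0.31) are filled below 0 in M0, and in M2 Srm (0.31) is filled above 0 and Amd1 (-0.21) below.

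The fibroblast and stroma markers had lower sums in KO in the same libraries, and 4 of the 5 were tested. Lum was at 0 in every library of WT M0, WT M2 and KO M2, Dcn was at most 0.681 CPM, and Col1a1 was 15.2 to 26.7 CPM in WT M0 beside 3.18 to 14.1 CPM in KO M0. By edgeR 0 of them were called in either treatment, 0 and 3 had an unadjusted p under 0.05 in M0 and M2, and DESeq2 called 0. In M0 the WT libraries held 53.1, 29.5 and 38.9 CPM of them and the KO libraries 28, 29.8 and 7.91 CPM. The neutrophil markers were also lower in KO M0, at 3.16 to 3.29 CPM beside 4.05 to 9.23 CPM in WT M0. Of the 2 tested neutrophil markers, S100a9 was called lower in KO M0 (log2 fold change -1.38, SE 0.29, edgeR adjusted p = 0.0124), and DESeq2 and limma called 1 of them as well. In M2, edgeR called 0 of the 2, 1 had an unadjusted p under 0.05, and DESeq2 and limma called 0. The sum of the IL-4 activation markers did not overlap between the genotypes in M0 either (134 to 159 CPM in KO beside 220 to 291 CPM in WT). Most of this sum was Mrc1, and the other markers together added little to it. Of the 8 tested, Mrc1, the mannose receptor, was called lower, at 131 to 155 CPM in KO M0 beside 214 to 287 CPM in WT M0 (log2 fold change -0.86, SE 0.10, edgeR adjusted p = 0.000522), and the median over the 8 was -0.54 beside -0.00 over all tested genes. The part of other cells and of the activation state in the genotype differences was not tested. In bulk RNA, fewer cells of a type and less RNA per cell cannot be told apart. Cre itself was present in all KO and in some WT mice, so that its presence, the loss of Lyz2 and the loss of IGF2BP2 cannot be told apart here.

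Whether the genotypes differed in their response to IL-4 was tested as an interaction, and the responses themselves are given per number, since M0 and M2 libraries of the same number varied together within a genotype. These comparisons use the same 12 libraries as those above. Of the 8 tested genes 2 had a response that was higher in KO and 0 a lower one, where 1.11% of all tested genes were called higher and 2.13% lower. Those were Odc1 and Srm. At an unadjusted p under 0.05 edgeR had 3 higher, with Slc7a2, and 0 lower (7.81% and 10% of all tested genes), and DESeq2 and limma called 2 higher and 0 lower. With the library number as a block within a genotype, 1002 in place of 416 of all tested genes were called. The count among the 8 genes changed from 2 to 3 through Slc7a2. Among the 8 tested IL-4 activation markers the response of Mrc1 was called higher in KO (0.69, SE 0.14, edgeR adjusted p = 0.0233).

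For Odc1 WT had log2 ratios of M2 to M0 of -0.53, -0.60 and -0.79, and KO had 0.08, 0.05 and -0.04. The changes in percent of the M0 level were -30.8, -34.1 and -42.1 for WT beside 5.34, 3.43 and -2.44 for KO. The genotypes did not overlap, and the difference of the responses was 0.68 (SE 0.09, edgeR adjusted p = 0.00383). It was called in each fit without 1 library (0.59 to 0.75, edgeR adjusted p from 0.000704 to 0.0151), and without both WT replicate 3 libraries it was 0.59 (edgeR adjusted p = 0.00304). The WT M0 libraries enter both this difference and the M0 comparison, so that these are not separate observations.

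For Srm WT had ratios of 0.28, 0.20 and 0.23 on the log2 scale, and KO had 0.74, 0.57 and 0.64. All 6 ratios were above 0, and the KO ratios exceeded those of WT without overlap. The difference of the responses was 0.41 (SE 0.08, edgeR adjusted p = 0.0147), and it was called in each fit without 1 library (0.36 to 0.45, edgeR adjusted p from 0.00926 to 0.0487).

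For Slc7a2 the WT log2 ratios were 6.47, 6.60 and 6.54 and those of KO 6.83, 7.38 and 7.67, again without overlap. The difference of 0.78 (SE 0.31) was not called when libraries were treated as unpaired (edgeR adjusted p = 0.21). It was called with the number as a block within a genotype (0.78, edgeR adjusted p = 0.0215). In the unpaired fit it was 0.77 without both WT replicate 3 libraries (edgeR adjusted p = 0.138). Without these and KO M2 replicate 1 it was 0.91 (edgeR adjusted p = 0.00315). On the log2(TPM + 1) scale the limma difference was 0.24 (adjusted p = 0.742). For Arg1 the WT ratios were 9.17, 9.38 and 8.68 and those of KO 8.82, 8.31 and 8.54, with overlap through WT replicate 3. The difference for Arg1 was -0.50 (SE 0.23, edgeR adjusted p = 0.286), and without WT M0 replicate 3 it was -0.81 (edgeR adjusted p = 0.0125). The other 4 tested genes differed in response by 0.09 (Amd1), -0.06 (Sms), -0.12 (Sat1) and -0.16 (Azin1), with edgeR adjusted p of 0.52, 0.678, 0.734 and 0.481.

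**Figure D4:**
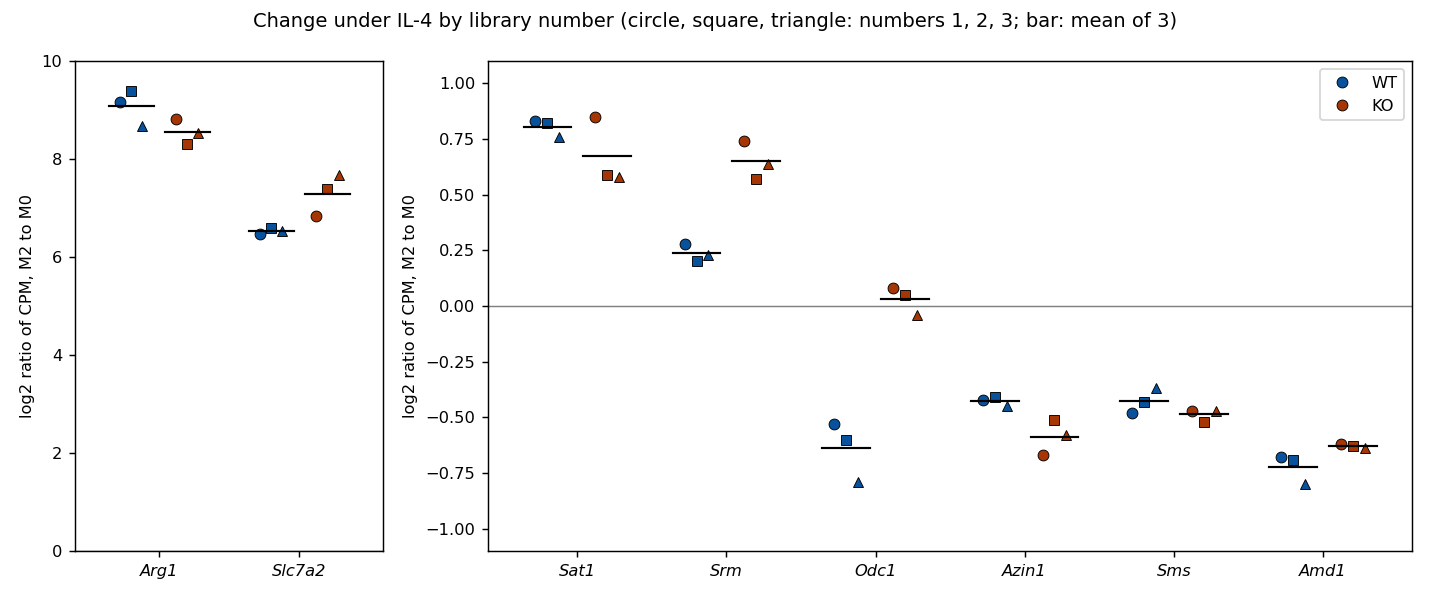
Log2 ratio of CPM in M2 to M0 for libraries of the same number (circle, square and triangle for numbers 1, 2 and 3; bars are means of 3), for WT and KO, with Arg1 and Slc7a2 on their own axis. The WT ratios of Odc1 lie at -0.79 to -0.53 and those of KO at -0.04 to 0.08, and the Srm ratios lie at 0.20 to 0.28 in WT and 0.57 to 0.74 in KO.

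Odc1 and Amd1 are the genes called lower in KO M0, and the 250 bases before their RefSeq start sites (GRCm38.p6) are shown for that reason. The window of Odc1 is chr12:17544623-17544872 on the plus strand, into which the GENCODE start of the gene falls, and that of Amd1 is chr10:40302189-40302438 on the minus strand. Bases are in the direction of transcription, with GC boxes (GGGCGG or CCGCCC) in capitals.
Odc1: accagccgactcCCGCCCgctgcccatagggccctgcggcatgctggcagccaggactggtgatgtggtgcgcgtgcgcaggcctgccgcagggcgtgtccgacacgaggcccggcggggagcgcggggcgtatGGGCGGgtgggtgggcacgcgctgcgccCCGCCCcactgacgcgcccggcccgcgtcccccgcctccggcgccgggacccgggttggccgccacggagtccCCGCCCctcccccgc
Amd1: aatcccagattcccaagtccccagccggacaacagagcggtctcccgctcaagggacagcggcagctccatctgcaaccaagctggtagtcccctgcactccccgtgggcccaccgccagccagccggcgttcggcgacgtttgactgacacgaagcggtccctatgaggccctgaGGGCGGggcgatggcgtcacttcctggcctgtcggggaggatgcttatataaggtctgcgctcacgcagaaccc
Odc1 held 4 GC boxes and Amd1 held 1, and 80% and 64.4% of the bases were G or C, beside a median of 52.4% over 32851 RefSeq windows of this length. A GC box occurred in 32.7% of these windows. Neither the E-box CACGTG, present in 6.02% of all windows, nor the STAT6 palindrome TTCNNNNGAA, present in 5.85%, was found in either of them, both motifs reading the same on the opposite strand. Windows were given for 4 of the 10 genes, Odc1, Amd1, Sat1 and Sms. That of Sat1 held 2 GC boxes with 59.6% G or C, and Sms, with 2 start sites, held 4 with 75.2% in one window and 0 with 47.2% in the other, so that GC boxes were also found before genes not called lower in KO M0. The GC box was added to the search after these sequences had been seen.

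Genes around the arginine and polyamine paths were read from lists. Over all tested genes IL-4 raised 24.9% and lowered 25.1% in WT, and raised 26.8% and lowered 26% in KO. In KO against WT, 5.5% were higher and 4.27% lower in M0, and 1.21% and 1.46% in M2. The counts per list are not read as particular to these genes. Of 12 other genes of arginine, citrulline, ornithine and proline metabolism, 10 were tested. In the edgeR test IL-4 raised 2 of them in WT and 5 in KO and lowered 0 in either, also at an unadjusted p under 0.05 and by DESeq2, while limma called 1 lower in WT. Otc, ornithine transcarbamylase, was at 0 in all libraries. Gatm, which uses arginine for creatine synthesis, rose from 90.1 to 91.8 CPM in WT M0 to 578 to 585 CPM in WT M2 (log2 fold change 2.68, SE 0.05, edgeR adjusted p = 5.27e-12) and from 68 to 77.9 CPM to 478 to 516 CPM in KO (2.80, SE 0.05, edgeR adjusted p = 2.83e-12). Prodh, proline dehydrogenase (0.64, edgeR adjusted p = 0.000507), and Aldh18a1, which leads to proline (0.38, edgeR adjusted p = 6.12e-05), rose in KO, while the differences of their responses between the genotypes were not called (edgeR adjusted p = 0.118 and 0.0948). Ass1, argininosuccinate synthase, which rebuilds arginine from citrulline, was not called under IL-4 (log2 fold changes -0.03 in WT and -0.02 in KO) but was higher in KO, at 46.7 to 58.7 CPM against 32.9 to 39.3 CPM in M0 (log2 fold change 0.53, SE 0.11, edgeR adjusted p = 0.0101). In M2 its log2 fold change was 0.54 (edgeR adjusted p = 0.0274), and that call was lost without WT M2 replicate 1, WT M2 replicate 2, KO M2 replicate 2 or KO M2 replicate 3 (edgeR adjusted p from 0.0814 to 0.114). Gatm was lower in KO M0 (log2 fold change -0.33, SE 0.05, edgeR adjusted p = 0.00276).

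Of 8 other carriers of basic amino acids, 7 were tested, and IL-4 raised 1 and lowered 1 in WT and raised 2 and lowered 1 in KO. Slc7a7, the light chain of an arginine exporter, fell, with log2 fold changes of -1.57 in WT (edgeR adjusted p = 6.89e-07) and -1.59 in KO (edgeR adjusted p = 2.66e-07), from 5.53 to 6.47 CPM in M0 to 1.77 to 2.29 CPM in M2. Slc7a1, the carrier CAT-1, was not called in any comparison, and its mean was 24.5 to 28.4 TPM in the 4 groups, so that Slc7a2 with 0.85 to 1.85 TPM was the lower of these carriers in M0 and with 96.1 to 163 TPM the higher in M2.

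Of 12 other genes that control, salvage or break down polyamines, 11 were tested, with 2 raised and 1 lowered by IL-4 in WT and 4 raised and 1 lowered in KO, and 0 called between the genotypes in either treatment by edgeR. At an unadjusted p under 0.05, 3 were lower in KO M0 and 2 were higher and 2 lower in KO M2, and DESeq2 called 1 lower in M0 and 0 in M2. Azin2, a second antizyme inhibitor, rose 6.1-fold in WT (log2 fold change 2.61, SE 0.11, edgeR adjusted p = 6.86e-10) and 7.88-fold in KO (log2 fold change 2.98, SE 0.10, edgeR adjusted p = 1.63e-10), although at 21.2 to 26.9 TPM in M2 it remained below Azin1 at 154 to 193 TPM. Smox, spermine oxidase, fell, with log2 fold changes of -0.55 in WT (edgeR adjusted p = 3.39e-06) and -0.56 in KO (edgeR adjusted p = 1.93e-06). Oaz1, the antizyme that targets ornithine decarboxylase for degradation, was the most abundant of these transcripts at 889 to 1071 TPM and was not called in any comparison.

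Of 3 polyamine transport genes, IL-4 raised 1 and lowered 1 in WT and lowered 1 in KO. Atp13a3, a transporter of the P5-type ATPase family, fell, with log2 fold changes of -0.47 in WT (edgeR adjusted p = 7.05e-05) and -0.54 in KO (edgeR adjusted p = 1.79e-05). Of 4 genes for hypusine, the spermidine-derived amino acid of the translation factor eIF5A, 1 was raised and 1 lowered in WT and 3 were raised in KO. Eif5a itself rose in WT (log2 fold change 0.73, SE 0.06, edgeR adjusted p = 7.74e-07) and in KO (0.61, SE 0.06, edgeR adjusted p = 3.02e-06).

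On the nitric oxide side, 7 of 10 genes were tested, with 2 raised and 1 lowered by IL-4 in WT and 3 raised and 1 lowered in KO. Gch1, which starts the synthesis of the cofactor of nitric oxide synthase, was the gene lowered in both, with log2 fold changes of -1.31 in WT (edgeR adjusted p = 3.25e-08) and -0.92 in KO (edgeR adjusted p = 4.68e-07). The difference of these responses was 0.39 (edgeR adjusted p = 0.0795). Over the 6 lists together, edgeR, DESeq2 and limma called the difference of the responses for 0 genes, and at an unadjusted p under 0.05 edgeR had between 0 and 3 per list higher in KO and 0 lower, where 7.81% of all tested genes were higher and 10% lower at that threshold.

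Beyond Ass1 and Gatm, the genotype calls of edgeR in these lists were Slc7a6, a carrier of neutral and basic amino acids, and Atp13a2, a lysosomal polyamine exporter, both in M0. In M0 DESeq2 called 2 of the carriers lower and 0 higher, and limma called 0. For the arginine list in M0, DESeq2 called 1 higher and 2 lower, and limma 1 higher and 1 lower. At an unadjusted p under 0.05, edgeR had 3 of 7 carriers lower and 0 higher in KO M0. Of 7 nitric oxide genes, 3 were lower and 1 higher (12.1% and 13.2% of all tested genes). Slc7a6 was lower in KO (log2 fold change -0.28, edgeR adjusted p = 0.0337) and Atp13a2 was higher (0.23, edgeR adjusted p = 0.0349). The call of Slc7a6 was lost without WT M0 replicate 1 or 2, WT M2 replicate 2, KO M0 replicate 2 or 3, or KO M2 replicate 3, with edgeR adjusted p up to 0.139. That of Atp13a2 was lost without WT M0 replicate 2 or 3, WT M2 replicate 2 or any of the KO M0 libraries, with edgeR adjusted p up to 0.127. In M2, Gatm was lower in KO (-0.21, edgeR adjusted p = 0.0477), a call that was lost in 9 of the 12 fits without 1 library, all but those without WT M0 replicate 1 or 3 or KO M0 replicate 3 (edgeR adjusted p up to 0.146).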

How the data were processed

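RNA-Seq was performed by the study on poly(A)-enriched RNA of BMMs, with stranded single-end reads of 75 nt, and the authors aligned reads to GRCm38 with the Grape-nf pipeline. The strand setting of the counting and the annotation release are not given in the sources used here. The authors deposited 12 tables, 1 per library, of expected counts (a read that fits more than 1 gene is split between them), together with TPM and the posterior SD of each count, which shows how far shared reads could move it. The authors also deposited DESeq2 comparisons with fold changes and p-values, from which only gene symbols were read. The deposited expected counts were rounded, since 6.46% of all values were not whole.

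Models were fitted with edgeR 4.0.16 in R 4.3.3, with alternatives from limma 3.58.1 and DESeq2 1.42.0, and Python 3.11.15 served for summaries. Genes were filtered with filterByExpr by group, scaled with TMM factors and fitted with 1 coefficient per group over all 12 libraries (quasi-likelihood F test, Benjamini-Hochberg over 12846 genes, biological coefficient of variation 8.08%). The SE is the log2 fold change divided by the square root of F. Alternatives were DESeq2, RLE factors, 2 other filters, limma on log2(TPM + 1) and log2(TPM + 0.1), only the 6 libraries of a comparison, a replicate block, and leaving out each library. Leaving out replicate 3 of both WT groups, alone or with replicate 1 of KO M2, was added after the data were seen. With 3 against 3 libraries an exact permutation test of 1 gene cannot give a p under 0.1, so none is given.

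Groups and numbers were taken from the sample titles. Deviations from the group means correlated between M0 and M2 libraries of the same number at 0.331, 0.103 and 0.364 in WT and 0.166, 0.16 and 0.209 in KO, and between WT and KO libraries at -0.0684 to 0.0403. The number was thus used as a block within a genotype, and it does not pair the genotypes. The titles do not state that libraries of the same number came from the same mouse, so that the block rests on these correlations. The depth of 20011792 to 39632770 counts per library limits genes such as Arg2 and Nos2 by counting error.

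The 10 genes and the lists were chosen with earlier results of these data known. The 8 tested genes were described in each comparison, and Arg2 and Nos2 mainly by their reads. In each list at most 4 called genes averaging 1 CPM or more were named, those with the largest fold change. Otc, Slc7a1 and Oaz1 were named in addition for their levels, without being called. Coordinates are from GENCODE M21 (GRCm38), and start-site windows from RefSeq (GRCm38.p6).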

Additional observations from a re-analysis of the deposited data

Results flagged for a closer look

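WT and KO responded differently in Odc1, by the test of the difference itself. The log2 fold change was 0.68 higher in KO than in WT (SE 0.09, edgeR adjusted p = 0.00383), with 3 of 3 WT ratios below all KO ratios. The 3 KO ratios lay on both sides of 0. Srm was flagged by the same test, as its response was 0.41 higher in KO (SE 0.08, edgeR adjusted p = 0.0147), with 3 of 3 KO ratios above all WT ratios. Over all tested genes the difference was called higher in KO for 1.11%, and both genes were called in every fit that was run. Both differences include the 3 WT M0 libraries, of which replicate 3 stood apart, and without the replicate 3 libraries of both WT groups the values were 0.59 for Odc1 (edgeR adjusted p = 0.00304) and 0.40 for Srm (edgeR adjusted p = 0.0127).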

How the results depend on the processing

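Under IL-4, 8 of the tested genes were called in WT and 7 in KO under each alternative and without each library, while the genes called over all tested genes ranged from 5606 to 6678 in WT and from 6034 to 7038 in KO when 1 library was left out. In M0, 2 of the 8 were called, 2 to 5 without 1 library, 4 with DESeq2, 4 without the filter on low counts, 5 without both WT replicate 3 libraries and 5 without these and KO M2 replicate 1. Over all genes the count in M0 was 1256, 461 to 1461 without 1 library, 752 and 700 with limma on log2(TPM + 1) and log2(TPM + 0.1), and 2532 without all 3 libraries that stood apart. In M2, 2 were called, 0 to 2 without 1 library, 1 without the filter on low counts, 1 with limma on either scale, 1 with only the 6 libraries of the comparison and 4 without both WT replicate 3 libraries. Over all genes it was 344 in M2, 25 to 761 without 1 library, 702 with DESeq2, 70 and 57 with limma, 165 with only the 6 libraries, and 1098 and 1310 without the libraries that stood apart. For the difference of the responses 2 were called, 2 to 3 without 1 library and 4 without the 3 libraries that stood apart. Over all genes it was 416, 183 to 643 without 1 library, 820 with DESeq2 and 113 with limma on either scale. With the number within a genotype as replicate block it was 1002, and without the 3 libraries 732. The causes were not tested. Among the 8 genes the replicate block changed the calls of Slc7a2 only. These were the difference of the responses and, with the number alone as block across genotypes, M0 (edgeR adjusted p = 0.045). There the number does not pair the genotypes.

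Values close to 0 changed sign, none of them called. For Odc1 under IL-4 in KO limma gave -0.05 on both scales. For Sms in M0 limma gave 0.02 on both scales and the fit without WT M0 replicate 2 gave 0.01. For Azin1 in M0 the fits without 1 library gave -0.04 to 0.08, with -0.04 without WT M0 replicate 3, -0.00 without KO M0 replicate 3, -0.04 without both WT replicate 3 libraries and -0.05 without all 3 libraries that stood apart. For Slc7a2 in M2 they gave -0.25 to 0.05, with 0.03 without WT M2 replicate 2 and 0.05 without KO M2 replicate 1. Among the other pathway genes named in a list or counted in it, the IL-4 calls of Slc3a2 and Ddah2 in WT were lost in 1 of 12 fits without 1 library, of Atp13a2 and Paox in 4, of Gamt and Nosip in KO in 3, and of Slc3a2 in KO in 6. At this depth Arg2 and Nos2 had too few counts to pass the filter.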

Other observations

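The genes whose profile over the 12 libraries was most like that of Arg1, out of 8719 genes averaging 10 CPM or more, were Flt1, Msx3 and Retnla. The measure was the root mean square difference between log2 CPM profiles centred on their own means, and it was 0.52, 0.57 and 0.67. An average of 2 counts was added per library before the logs, so that differences between values near 0 count less. Msx3 and Retnla were near 0 in M0, where this addition weighs most. Msx3 averaged 0.0239 CPM in WT M0, 18.8 CPM in WT M2, 0.0303 CPM in KO M0 and 32.1 CPM in KO M2. Flt1, which encodes a receptor for vascular endothelial growth factors, averaged 0.583 CPM in WT M0, 231 CPM in WT M2, 0.452 CPM in KO M0 and 186 CPM in KO M2. Retnla, a classical marker of IL-4-activated mouse macrophages, averaged 0.0499, 102, 0.0388 and 108 CPM in the same order. For Odc1 the closest profiles were those of Hpse (0.08), which encodes heparanase, Pspc1 (0.10), which encodes a paraspeckle protein, and H2-Q4 (0.11), a class I histocompatibility gene. Hpse averaged 46.2 CPM in WT M0, 32.7 CPM in WT M2, 31.8 CPM in KO M0 and 32.4 CPM in KO M2. H2-Q4 belongs to a family of similar genes that can share reads, so that its counts may be uncertain, and the SD from shared reads was not examined for it.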
